A study of Mus musculus with 6 samples.

Results

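The IL-1 family genes described here are 8 genes that encode ligands, receptors and antagonists of interleukin-1 and interleukin-18: Il1a, Il1b, Il18, Il1rn, Il18bp, Il1r2, Il1r1 and Il1rap. They were taken by gene symbol for their role in the family, with earlier results of these data known, and all 8 were among the 17469 genes of the deposited table. RNA-seq was measured in cells sorted for tdTomato from bone marrow stromal cell (BMSC) cultures of 6-month-old mice, with 3 libraries from OCN-Cre;Ai9 mice (control) and 3 from TgAPPsweOCN;Ai9 mice (called TgAPPsweOCN from here on). Both genotypes carried OCN-Cre, in which the osteocalcin promoter drives Cre recombinase, and Ai9, a reporter that yields tdTomato after Cre has acted. The TgAPPsweOCN mice in addition carried a human amyloid precursor protein transgene with the Swedish mutation (APPswe), which the same Cre switches on. The study calls the sorted cells OB (osteoblast) progenitors. The labels do not say whether the libraries of a genotype came from separate mice or cultures, so the p-values measure the spread between these libraries only.

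Interleukin-1 alpha and beta signal through a receptor built from IL1R1 and the accessory protein IL1RAP, which recruits MyD88 and IRAK kinases and activates NF-kappaB. The pathway is restrained by IL-1Ra (Il1rn), which occupies IL1R1 without signalling, and by IL1R2, a decoy that binds the ligand and lacks a signalling domain. IL-18 has its own receptor pair and is neutralized by the secreted protein IL18BP. Macrophages and other myeloid cells are a well known source of IL-1 beta, and IL-1 is known in bone for stimulating osteoclast formation.

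Of the 8 genes, 3 were up-regulated in the tdTomato+ cells of TgAPPsweOCN mice, namely the agonists Il1a and Il1b and the antagonist Il1rn. Il1rap and Il18bp passed the adjusted p with a log2 fold change just under 1, Il18 and Il1r1 did not pass it, and Il1r2 had too few counts to be tested. Genes were called up- or down-regulated when the Benjamini-Hochberg adjusted p from edgeR's quasi-likelihood test, over all 12701 genes tested, was at or below 0.05 and the log2 fold change was at least 1 in either direction. By this rule 8.90% of the genes tested were up-regulated and 9.20% down-regulated, against 3 up-regulated and 0 down-regulated of the 7 IL-1 family genes tested. The call of Il1a, with 5, 10 and 10 counts in the control libraries, depended on the filter. When each library had to reach 10 counts, Il1a was not tested, and 2 IL-1 family genes were up-regulated and 0 down-regulated. Of all genes, 885 were then up-regulated and 984 down-regulated. By the adjusted p alone, at any fold change, 32.5% of the genes tested were raised and 31.5% lowered, against 5 raised and 0 lowered of the 7. The same numbers, 5 and 0, were found at an unadjusted p under 0.05 and by the adjusted p of DESeq2 and of limma on log2(FPKM + 1). When library totals alone were used for scaling, in place of TMM, this moved the median log2 fold change of all genes from -0.02 to -0.23 and the numbers of up- and down-regulated genes from 1130 and 1169 to 846 and 1732, and the same 3 IL-1 family genes were up-regulated. The median log2 fold change of the 7 was 0.98, beside -0.02 over all genes tested.

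The IL-1 ligands Il1a and Il1b lie near each other on mouse chromosome 2, and Il1rn lies on the same chromosome. The regions 250 bases before to 50 bases after the RefSeq start sites (build GRCm38.p6) of these genes are shown because all 3 were up-regulated in the same genotype. They are written 5′ to 3′ along the gene, and capitals mark matches to an AP-1 motif (TGANTCA, N being any base) or a TATA motif (TATAAA), searched on both strands.
Il1a, chr2:129309923-129310222, minus strand: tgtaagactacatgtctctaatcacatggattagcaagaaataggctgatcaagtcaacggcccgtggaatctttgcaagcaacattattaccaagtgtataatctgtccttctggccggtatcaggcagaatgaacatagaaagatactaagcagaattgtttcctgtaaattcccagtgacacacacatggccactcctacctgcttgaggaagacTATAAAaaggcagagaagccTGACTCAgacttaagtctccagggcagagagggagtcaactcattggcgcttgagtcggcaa
Il1b, chr2:129371090-129371389, minus strand: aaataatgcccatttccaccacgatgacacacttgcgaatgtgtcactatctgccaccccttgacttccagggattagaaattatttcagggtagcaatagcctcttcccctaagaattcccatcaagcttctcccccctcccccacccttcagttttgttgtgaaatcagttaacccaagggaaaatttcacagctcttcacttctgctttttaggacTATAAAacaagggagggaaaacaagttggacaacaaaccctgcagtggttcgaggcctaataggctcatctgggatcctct
Il1rn, the most upstream of its 3 start sites, chr2:24336610-24336909, plus strand: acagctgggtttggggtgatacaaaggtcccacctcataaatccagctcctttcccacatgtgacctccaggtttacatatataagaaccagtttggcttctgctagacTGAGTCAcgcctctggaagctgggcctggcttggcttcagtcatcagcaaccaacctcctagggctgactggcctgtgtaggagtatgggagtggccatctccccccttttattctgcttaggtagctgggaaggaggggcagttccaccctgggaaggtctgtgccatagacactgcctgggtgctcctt

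The TATA match began at position -32 from the start site in Il1a and at -31 in Il1b. An AP-1 match, the motif of Fos and Jun dimers, began at -12 in Il1a and at -141 in this Il1rn window, and the Il1b window held none. Of 32851 mouse promoter windows of the same length, 7.81% held the AP-1 motif and 13.6% the TATA motif. The 2 downstream Il1rn windows (chr2:24345041-24345340 and chr2:24345121-24345420) overlap each other and held no AP-1 match, and the last of them held a TATA match on the opposite strand at 14. Il18, which did not pass the test of expression, also held a TATA match on the opposite strand, at -175. No window of Il1a, Il1b or Il1rn matched the NF-kappaB motif or AGGAAGT, a motif bound by PU.1, which were found in 4.51% and 9.35% of all windows. The only NF-kappaB match among the windows of the 8 genes was in the downstream start site of Il1r1. The C/EBP motif TTNCNNAA matched in Il1a, Il1b and both downstream Il1rn windows and was present in 40.7% of all windows. It also matched in both windows of Il1r1, which did not pass the test of expression, and in Il18bp. A match describes letters in a window and does not show that a factor binds there. The deposited values are per gene, so transcripts from the different Il1rn start sites, which encode secreted and intracellular forms, were not separated.

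The libraries held 19340810 to 22037840 estimated counts, and 3 counts, the smallest level taken as detectable, corresponded to 0.136 to 0.155 CPM (counts scaled to the library total), which covers counting error only. App, for which the transgene is a human copy, had an FPKM (fragments scaled by gene length and by all mapped fragments) of 275 to 281 in control and 325 to 333 in TgAPPsweOCN libraries. In both genotypes the library numbered 3 lay between the other two for nearly every gene that set those apart. Among genes with at least 30 counts in each library whose libraries 1 and 2 differed by more than 1 on the log2 scale, it lay between them for 138 of 144 genes in control and 211 of 212 genes in TgAPPsweOCN. With library 1 or 2 in that place, the share was 8.11% to 24.4%. Whether library 3 shares cells or RNA with the others was not tested, and results for the 7 tested IL-1 family genes and for the ratios are therefore also given with libraries 1 and 2 alone.

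Markers of myeloid cells were abundant in cells labelled OB progenitors. The summed FPKM of 12 macrophage and monocyte markers was 13053 to 13493 in control and 9158 to 13221 in TgAPPsweOCN libraries, against 134 to 159 and 101 to 178 for 12 stromal and osteoblast markers. Over the libraries of both genotypes the highest mean FPKM was that of Lyz2 and Adgre1 among the former and of Col1a2 and Col1a1 among the latter. The order differed within a genotype, since Cd68 (1268) and Csf1r (1214) were above Adgre1 (563) in control, and Cxcl12 (44.8) was above Col1a2 (42.0) and Col1a1 (34.9) in TgAPPsweOCN (Cd68, Csf1r and Cxcl12 were named after their values were seen). Most of the macrophage and monocyte sum was Lyz2 (mean FPKM 9057 in control and 6977 in TgAPPsweOCN), which did not pass the test (edgeR, adjusted p = 0.418). Of 11 stromal and osteoblast markers tested, 2 were up-regulated and 0 down-regulated, beside 8.90% and 9.20% of all genes tested, and 3 were raised and 2 lowered by the adjusted p alone, beside 32.5% and 31.5%. The 2 up-regulated genes, named after their values were seen, were Lum, with 0, 1 and 0 counts in the control and 28, 35 and 38 in the TgAPPsweOCN libraries, and Dcn, with 13, 22 and 13 against 51, 406 and 250. Alpl was also raised (log2 fold change 0.57), and Sp7 and Pdgfrb were lowered (-0.78 and -0.55). Bglap, the osteocalcin gene itself, had an FPKM of 0.857 in control and 0.273 in TgAPPsweOCN on average and too few counts for a test (it was named after its value was seen). The macrophage and monocyte markers differed between the genotypes in both directions, with 4 of 12 up-regulated and 5 down-regulated, beside 8.90% and 9.20% of all genes tested. Summed FPKM was 13.6 to 54.3 in control and 19.1 to 52.2 in TgAPPsweOCN libraries for 10 neutrophil markers, led by S100a9 and S100a8. Of the 8 tested, 1 was up-regulated and 0 down-regulated, beside 8.90% and 9.20% of all genes tested. The up-regulated gene was Camp (named after its value was seen), and S100a9 and S100a8 did not pass the test. For 9 lymphocyte markers, led by Cd4 and Cd8a, the summed FPKM was 3.80 to 4.66 and 1.06 to 2.56. Most of it was Cd4 (mean FPKM 3.62 and 1.28), which was down-regulated, whereas Cd8a (0.393 and 0.370) did not pass the test. For 8 endothelial and megakaryocyte markers, led by Pf4 and Pecam1, the summed FPKM was 531 to 643 and 122 to 272. Nearly all of it was Pf4 (mean FPKM 565 and 184), which was down-regulated, whereas Pecam1 (2.02 and 3.53) was up-regulated. No marker was at 0 in every library. The part of these cell types in the IL-1 family results was not tested, and in bulk samples more cells of a type and more RNA per cell cannot be told apart.

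Among the agonists, Il1a, the ligand that is active also in its unprocessed form, was low in control cells and rose the most of the 7 tested. Its estimated counts were 5, 10 and 10 in the control libraries 1, 2 and 3, and 785, 84 and 449 in the TgAPPsweOCN libraries. Every TgAPPsweOCN library exceeded every control library, but library 1 held many times the counts of library 2. FPKM went from 0.197 ± 0.0751 (mean ± SD, n = 3) to 10.4 ± 8.25, and the log2 fold change was 5.77 with a standard error of 0.920 (edgeR, adjusted p = 0.000634). It was 5.04 without TgAPPsweOCN library 1 and 5.89 (adjusted p = 0.0147) with libraries 1 and 2 alone.

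Il1b, the ligand that caspase-1 processes before release, was up-regulated, with a log2 fold change of 3.08 (standard error 0.432, edgeR, adjusted p = 0.000296). The estimated counts were 343, 419 and 397 in the control and 5001, 1319 and 3053 in the TgAPPsweOCN libraries. The genotypes did not overlap, and TgAPPsweOCN library 1 was again the highest and library 2 the lowest. The log2 fold change was 2.56 without TgAPPsweOCN library 1, 3.46 without library 2 and 3.11 (adjusted p = 0.0111) with libraries 1 and 2 alone.

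The deposited FPKM of Il1b did not follow its counts in TgAPPsweOCN library 2. FPKM was 13.15, 15.90 and 14.97 in the control and 175.73, 146.43 and 108.84 in the TgAPPsweOCN libraries, so that library 2 was above library 3 in FPKM and below it in counts. One FPKM stood for 9.01 counts in that library and for 26.1 to 28.5 counts in each of the other 5. Counts and FPKM were then put on a common scale, using the total counts of each library and its median over genes. On that scale the other 5 libraries put 1319 counts at an FPKM of 45.5, and the deposited value was 3.22 times as high. Of 9949 genes with 50 or more counts and an FPKM of 1 or more in each library, 2 departed by 3-fold or more from the relation of counts to FPKM in their other libraries, Il1b and Gm40525 (the latter named after its value was seen). Which of the 2 deposited values is right was not tested. The plot of Il1b counts against FPKM shows library 2 apart from the relation that the other 5 follow.

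**Figure D1:**
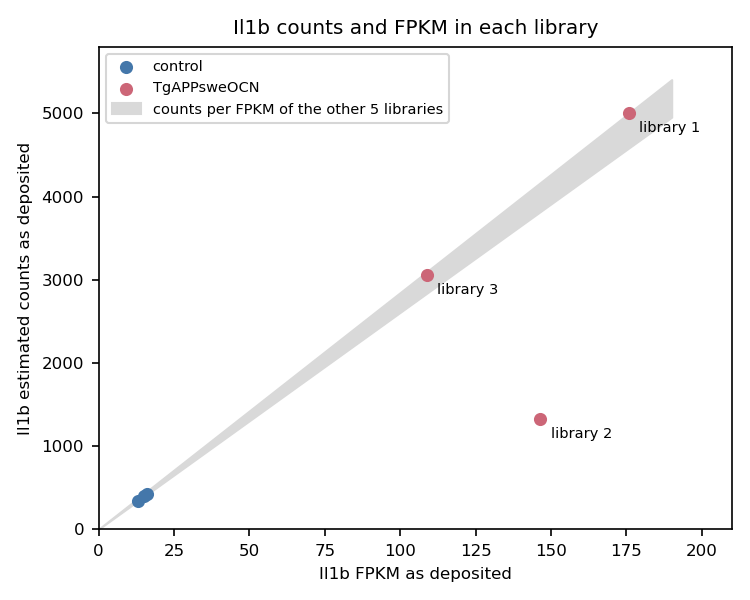
Estimated counts of Il1b (vertical axis) against its deposited FPKM (horizontal axis), with 1 point for each of the 3 control (blue) and 3 TgAPPsweOCN (red) libraries. The grey wedge spans the 26.1 to 28.5 counts per FPKM of the 5 other libraries, and TgAPPsweOCN library 2, with 1319 counts at an FPKM of 146.43, lies below it.

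Il18, a ligand that induces interferon gamma in lymphocytes, did not pass the test. Its counts were 230, 156 and 191 in the control and 257, 208 and 213 in the TgAPPsweOCN libraries, and the genotypes overlapped. The log2 fold change was 0.29 with a standard error of 0.163 (edgeR, adjusted p = 0.151), and 0.32 (adjusted p = 0.323) with libraries 1 and 2 alone. Without control library 1, which was the highest of its genotype, the log2 fold change was 0.43 and the adjusted p 0.0410. FPKM was 10.01 ± 2.47 in control and 10.1 ± 1.48 in TgAPPsweOCN libraries (n = 3 each).

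Among the antagonists, Il1rn, which encodes IL-1Ra, was up-regulated with the smallest standard error of the 3 up-regulated genes. It had 755, 611 and 658 counts in the control and 2559, 3725 and 3323 in the TgAPPsweOCN libraries. No library of the genotypes overlapped, and within TgAPPsweOCN the order was the reverse of that of Il1a and Il1b, with library 1 the lowest and library 2 the highest. FPKM went from 14.3 ± 1.60 to 60.9 ± 11.5 (n = 3 each), and the log2 fold change was 2.30 with a standard error of 0.137 (edgeR, adjusted p = 2.19e-06). With libraries 1 and 2 alone it was 2.25 (adjusted p = 0.000920).

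Il18bp, which encodes the protein that neutralizes IL-18, was raised with a smaller change. The counts were 399, 304 and 312 in the control and 512, 736 and 562 in the TgAPPsweOCN libraries. The genotypes did not overlap, and as for Il1rn, library 1 was the lowest and library 2 the highest of the TgAPPsweOCN libraries. FPKM went from 13.2 ± 2.05 to 21.0 ± 4.14, and the log2 fold change was 0.89 with a standard error of 0.149 (edgeR, adjusted p = 0.000837). It was 0.87 (adjusted p = 0.0199) with libraries 1 and 2 alone, and 1.02, past the fold change threshold, without control library 1.

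Il1r2, the decoy receptor, was at or near the limit of detection in both genotypes. It had 1, 1 and 0 counts in the control and 0, 2 and 4 in the TgAPPsweOCN libraries. A single library exceeded 3 counts, and no fold change is given.

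Of the signalling receptor chains, Il1rap was raised and Il1r1 did not pass the test. Il1rap, the accessory chain, had 178, 212 and 209 counts in the control and 365, 346 and 427 in the TgAPPsweOCN libraries, with no overlap. The log2 fold change was 0.98 with a standard error of 0.116 (edgeR, adjusted p = 0.000106), and 0.91 (adjusted p = 0.00480) with libraries 1 and 2 alone. Without TgAPPsweOCN library 2 it reached 1.06, and in 4 of the 6 fits that each left out a library Il1rap passed the fold change threshold.

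Il1r1, the chain that binds the ligand, was low in all libraries. It had 45, 78 and 51 counts in the control and 24, 82 and 53 in the TgAPPsweOCN libraries, and the genotypes overlapped fully. The log2 fold change was -0.08 with a standard error of 0.397 (edgeR, adjusted p = 0.880), and -0.17 (adjusted p = 0.834) with libraries 1 and 2 alone. Its sign changed, to 0.27, without TgAPPsweOCN library 1 and, to 0.18, without control library 2. A difference of this size was not detectable with the spread between these libraries.

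**Figure D2:**
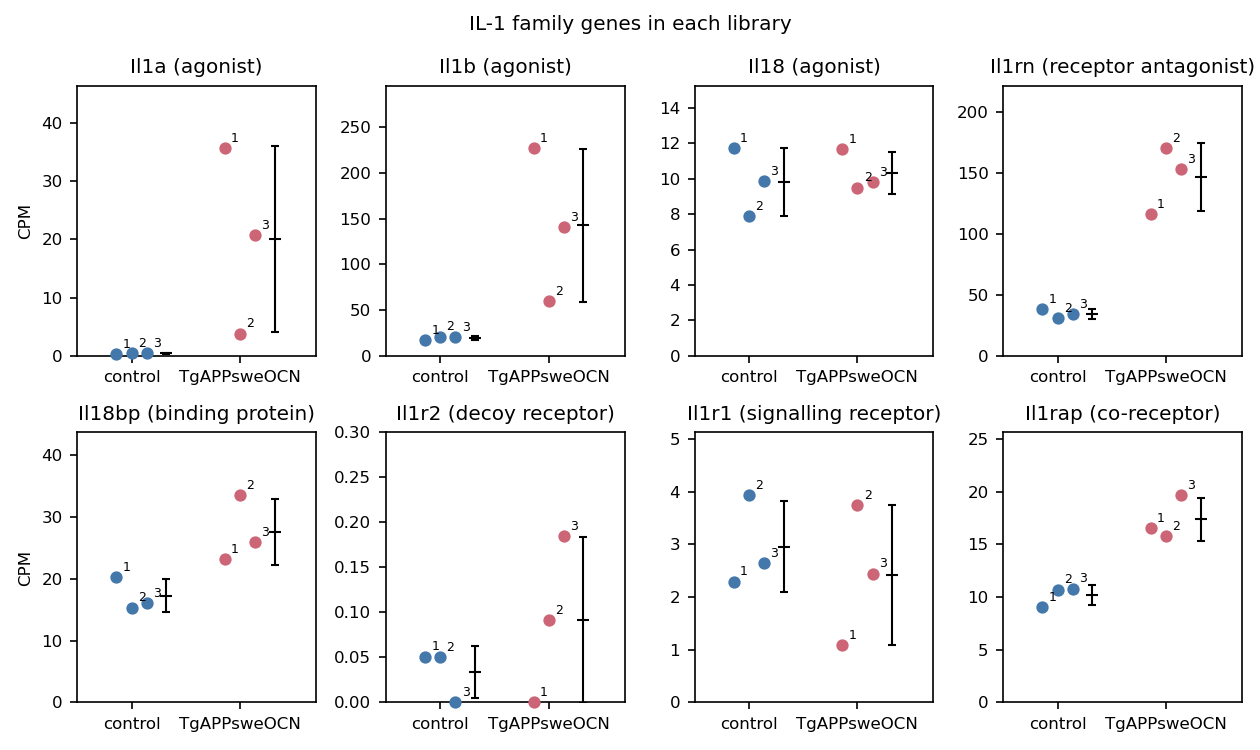
CPM of the 8 IL-1 family genes, with 1 point per library numbered 1 to 3, control in blue and TgAPPsweOCN in red, and the mean ± SD of the 3 libraries in black beside them. Il1a, Il1b, Il1rn, Il18bp and Il1rap do not overlap between the genotypes, and Il1a and Il1b are highest in TgAPPsweOCN library 1 whereas Il1rn and Il18bp are lowest there. The share of all genes that do not overlap was not counted. By the adjusted p alone 32.5% of the genes tested were raised and 31.5% lowered.

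Ordered by level per length (FPKM), control cells had Il1b at 14.7 ± 1.40, Il1rn at 14.3 ± 1.60, Il18bp at 13.2 ± 2.05 and Il18 at 10.01 ± 2.47, and neighbours in this order overlapped between libraries. Il1rap (2.40 ± 0.244), Il1r1 (0.647 ± 0.187), Il1a (0.197 ± 0.0751) and Il1r2 (0.0267 ± 0.0231) followed in that order, each separated from the next in every library. In TgAPPsweOCN cells the order was Il1b (144 ± 33.5 from the deposited values), Il1rn (60.9 ± 11.5), Il18bp (21.0 ± 4.14), Il1a (10.4 ± 8.25), Il18 (10.1 ± 1.48), Il1rap (4.15 ± 0.583), Il1r1 (0.533 ± 0.295) and Il1r2 (0.0767 ± 0.0751). Il1a overlapped with Il18bp, Il18 and Il1rap in this order, and Il1b overlapped with Il1rn when the FPKM of library 2 was taken from its count. Both receptor chains thus had lower levels than Il1b and Il1rn in each genotype.

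The agonists were set against their antagonists as FPKM ratios within each library, given as a description with no test. The ratio of Il1b to Il1rn was 0.820, 1.24 and 1.06 in the control and 3.65, 2.07 and 1.71 in the TgAPPsweOCN libraries, or 1.04 ± 0.209 against 2.47 ± 1.03. By the deposited FPKM every TgAPPsweOCN library was above every control library, with a mean difference of 1.195 on the log2 scale (1.45 with libraries 1 and 2 alone). With the FPKM of Il1b in TgAPPsweOCN library 2 taken from its count, that library's ratio was 0.643, below all 3 control libraries, and the mean difference was 0.63 (0.61 with libraries 1 and 2 alone).

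Ratios of CPM, which use the counts alone, gave the same picture as the latter. They were 0.454, 0.686 and 0.603 in the control and 1.95, 0.354 and 0.919 in the TgAPPsweOCN libraries, with a mean log2 difference of 0.59 (0.58 with libraries 1 and 2 alone). TgAPPsweOCN libraries 1 and 3 were above the control libraries and library 2 below them, so the direction of the Il1b to Il1rn ratio was not the same in every library by counts. Without TgAPPsweOCN library 1 the mean log2 difference was -0.0062 by CPM and 0.034 with the FPKM of library 2 taken from its count, and without library 2 it was 1.23 by CPM.

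The ratio of Il1a to Il1rn was raised in each TgAPPsweOCN library. It was 0.00686, 0.0186 and 0.0170 in the control and 0.383, 0.0277 and 0.168 in the TgAPPsweOCN libraries, a mean log2 difference of 3.23 (3.19 with libraries 1 and 2 alone). Single libraries moved this value, to 2.40 without TgAPPsweOCN library 1 and to 4.29 without library 2. The control ratios rest on 5 to 10 counts of Il1a, and library 2 was again the lowest of its genotype. The ratio of Il18 to Il18bp moved the other way, from 0.814, 0.664 and 0.775 to 0.665, 0.345 and 0.484, a mean log2 difference of -0.64 (-0.62 with libraries 1 and 2 alone). The genotypes met at 0.664 and 0.665 by FPKM and did not overlap by CPM. No ratio to Il1r2 is given, since it was at 0 in a library of each genotype.

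**Figure D3:**
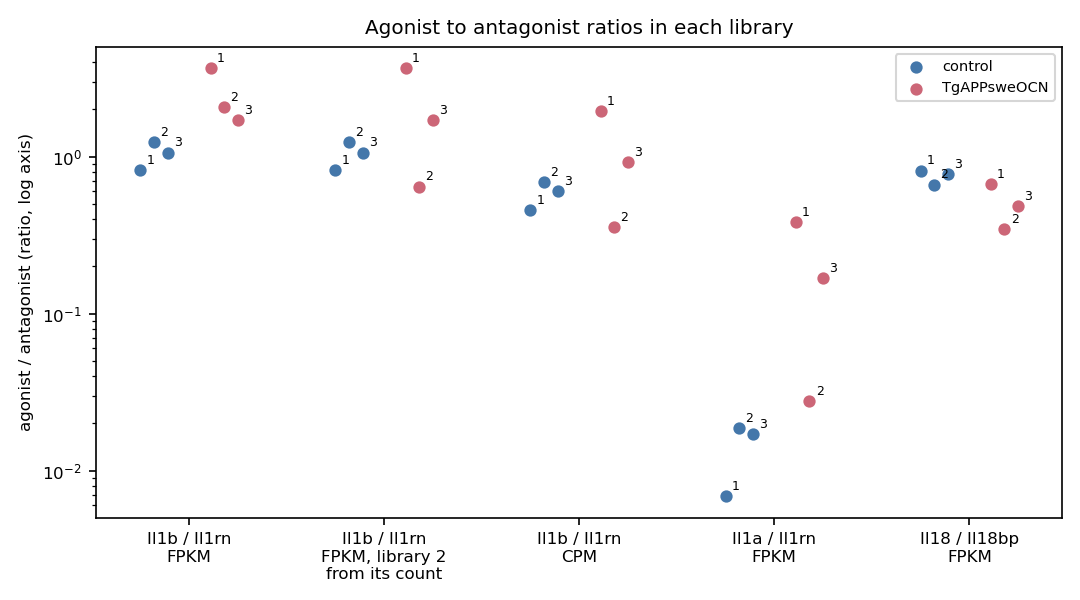
Ratios of agonist to antagonist in each library on a log axis, numbered 1 to 3, control in blue and TgAPPsweOCN in red. The Il1b to Il1rn ratio of TgAPPsweOCN library 2 is above the control libraries by deposited FPKM (2.07) and below them when its FPKM is taken from its count (0.643) or by CPM (0.354).

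Profiles most like those of Il1b, Il1rn and Il18 were sought among the 11860 genes that had 10 or more counts in each library, as the distance between log2 CPM values centred over the 6 libraries. Nearest to Il1b were Cxcl1, a neutrophil chemokine (0.556), Clec4e, the lectin receptor Mincle (0.605), and Slc7a11, the cystine transporter (0.634). Nearest to Il1rn were Adk, adenosine kinase (0.106), Rgl1 (0.157) and Dtx2 (0.243). Nearest to Il18 were Flt3l, a cytokine for dendritic cell development (0.164), Acbd4 (0.171) and Alas1, the first enzyme of heme synthesis (0.175).

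Of 9 other genes of the IL-1 family found in the table, 5 were tested, with 0 up-regulated and 1 down-regulated, beside 8.90% and 9.20% of all genes tested, and a median log2 fold change of -0.37. By the adjusted p alone 1 was raised and 1 lowered in edgeR, beside 32.5% and 31.5% of all genes tested. These numbers were 1 and 2 in edgeR at an unadjusted p under 0.05. They were 1 and 1 by DESeq2 and 1 and 3 by limma on log2(FPKM + 1). Il36g had the highest level of the 9 genes, with an FPKM of 3.85 ± 0.277 in control and 2.90 ± 0.611 in TgAPPsweOCN libraries. Il1rl1, the IL-33 receptor ST2, had 27, 87 and 70 counts in the control and 17, 16 and 9 in the TgAPPsweOCN libraries, so that its log2 fold change was -2.06 (standard error 0.457, edgeR, adjusted p = 0.00394). It was not called with libraries 1 and 2 alone (-1.73, adjusted p = 0.0621). Il1rl2, the IL-36 receptor, was raised by a log2 fold change of 0.61 (edgeR, adjusted p = 0.0268), but did not pass with libraries 1 and 2 alone (adjusted p = 0.158). The log2 fold change was -0.19 for Il36g (adjusted p = 0.398), -0.37 for Il18rap, a chain of the IL-18 receptor (adjusted p = 0.523), and -0.93 for Sigirr, a receptor that restrains IL-1 signalling (adjusted p = 0.0733), none of them past the test in edgeR. With libraries 1 and 2 alone these values were -0.21, -0.11 and -0.94 (adjusted p 0.554, 0.913 and 0.219). Il33, with 0, 4 and 2 counts in the control and 4, 25 and 9 in the TgAPPsweOCN libraries, was not tested. Il36a (0 to 6 counts), Il1f10 and Il18r1, the ligand-binding chain of the IL-18 receptor (0 to 2 counts each), were not tested either. Il36b, Il36rn, Il1rapl1 and Il1rapl2 were not among the genes of the deposited table.

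Of 16 genes for IL-1 maturation and release, all tested, 2 were up-regulated and 1 was down-regulated, beside 8.90% and 9.20% of all genes tested. By the adjusted p alone 5 were raised and 5 lowered, shares near the 32.5% and 31.5% of all genes tested, and limma on log2(FPKM + 1) gave 3 raised and 7 lowered. The median log2 fold change was -0.03. Casp4, the inflammatory caspase known as caspase-11 in mice, rose from an FPKM of 15.5 ± 0.803 to 35.6 ± 1.28 (log2 fold change 1.41, edgeR, adjusted p = 7.43e-07). Casp1, which processes IL-1 beta and IL-18, rose from 50.6 ± 1.37 to 93.9 ± 5.81 (log2 fold change 1.11, edgeR, adjusted p = 2.78e-06). P2rx7, the ATP-gated channel that triggers IL-1 beta release, fell from 28.1 ± 2.31 to 11.6 ± 1.62 (log2 fold change -1.05, edgeR, adjusted p = 3.46e-05). Casp1 and P2rx7 lay close to the fold change threshold. Casp1 was not called with scaling by library size (0.89) or by limma on log2(FPKM + 1) (0.88) and log2(FPKM + 0.1) (0.89), and P2rx7 was at -0.94 without TgAPPsweOCN library 1 and at -0.99 without control library 1.

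Of 23 IL-1 receptor signalling genes tested, 4 were up-regulated and 1 was down-regulated, beside 8.90% and 9.20% of all genes tested, and the median log2 fold change was 0.14. By the adjusted p alone 11 were raised and 7 lowered, beside 32.5% and 31.5% of all genes tested, but limma on log2(FPKM + 1) gave the opposite balance, with 8 raised and 10 lowered. The largest rise was that of Irak3, a kinase-like protein that dampens signalling by the receptor complex, with a log2 fold change of 2.94 (standard error 0.0802, edgeR, adjusted p = 4.77e-08). Irak2, an IRAK that sustains signalling, rose by 1.59 on this scale. Peli1, a ubiquitin ligase, rose by 1.22, and Map3k8, the kinase Tpl2, by 1.21, both close to the fold change threshold (0.9996 and 0.997 with library size scaling, which left 2 up- and 2 down-regulated). Peli2, a ubiquitin ligase of the same family, fell by 2.43 (adjusted p = 1.98e-07 in edgeR), with 1138, 1053 and 1147 counts in the control and 175, 203 and 218 in the TgAPPsweOCN libraries.

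Of 23 genes known to be induced by IL-1, which other stimuli such as TNF and Toll-like receptor ligands also induce, 21 were tested and 19 were up-regulated. The share over all genes tested was 8.90%, and none of the 21 was down-regulated (edgeR, 0 lowered also at an unadjusted p under 0.05 and by DESeq2 and limma). By the adjusted p alone 20 were raised, and the median log2 fold change was 3.39. With libraries 1 and 2 alone, 18 were up-regulated. When at least 10 counts were required in every library, which leaves out genes with few control counts, 15 were up-regulated. Csf3, the granulocyte growth factor G-CSF, had 2, 0 and 0 counts in the control and 412, 71 and 199 in the TgAPPsweOCN libraries. Lcn2, the iron-trapping protein lipocalin-2, went from an FPKM of 5.61 ± 2.498 to 538 ± 243 (log2 fold change 6.80, edgeR, adjusted p = 3.96e-06). Il6, an inflammatory cytokine, had 4, 1 and 5 counts in the control and 488, 176 and 287 in the TgAPPsweOCN libraries (log2 fold change 6.58, edgeR, adjusted p = 1.83e-05). In these 3 genes, as in Il1a and Il1b, TgAPPsweOCN library 1 was the highest and library 2 the lowest. Has2, a hyaluronan synthase, was the gene of the list that did not pass the adjusted p (0.686, log2 fold change -0.12). Csf2, with 0 counts in each control library and 22, 6 and 21 in the TgAPPsweOCN libraries, and Ccl20, with at most 2 counts, were not tested.

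Of 5 genes known to be induced by IL-18, 4 were in the table and 0 were tested, since Ifng, Gzmb, Fasl and Prf1 had at most 4 counts in any library.

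**Figure D4:**
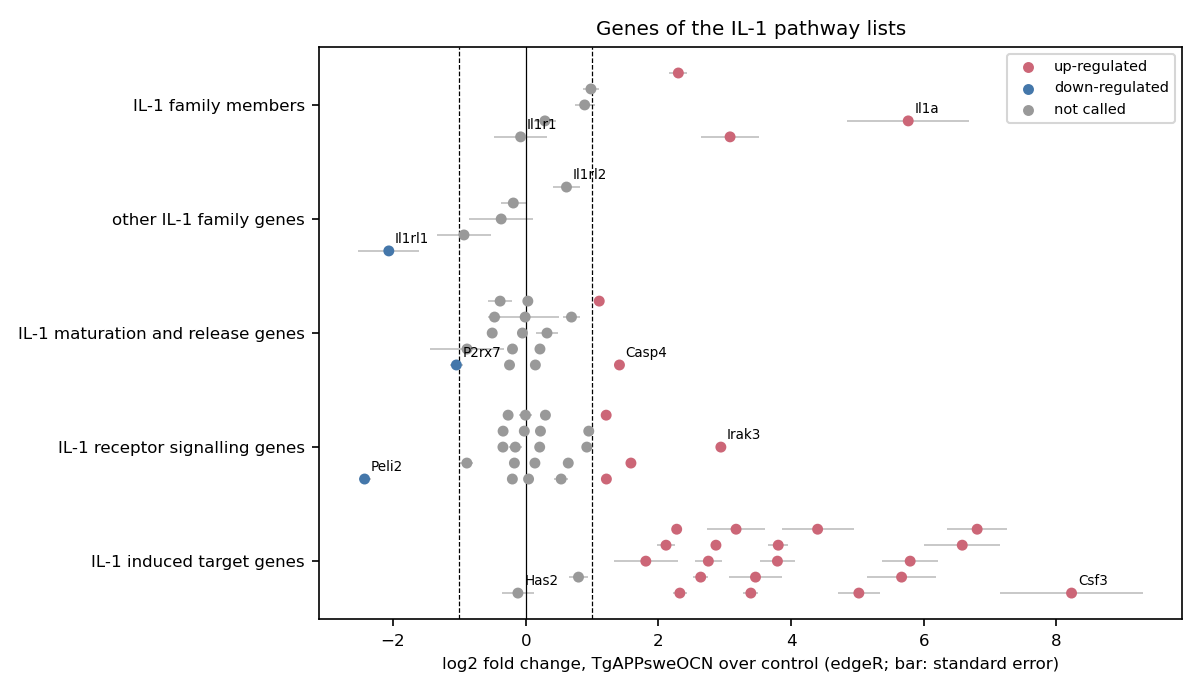
Log2 fold changes (TgAPPsweOCN over control, edgeR) of the tested genes in the IL-1 family and in 4 lists of related genes, with 1 point per gene, bars for the standard error, dashed lines at -1 and 1, and the lowest and highest gene of each list named. The IL-1 induced target genes, 19 of 21 up-regulated, have a median of 3.39, against medians of -0.37 to 0.98 in the other 4 groups.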

How the data were processed

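RNA-seq was measured in 3 control and 3 TgAPPsweOCN libraries. The submitters' processing notes name HISAT2 2.0.4, Bowtie2 2.2.5, RSEM 1.2.12 and DESeq2 1.4.5, with the mm10 build, and give no order of use. The authors deposited estimated counts and FPKM values per gene in 1 table, and the same FPKM values with a log2 ratio of the genotypes and an unadjusted p-value in another, and these last 2 columns were not used. The estimated counts were rounded to whole numbers, filtered (filterByExpr), normalized by TMM and compared with edgeR 4.0.16 (quasi-likelihood test, genotype only) in R 4.3.3. Calls took the study's thresholds. FPKM values as deposited served for levels between genes and for ratios. The number of counts was 19340810 to 22037840 per library. Il36a and Il36g were matched by their older symbols through Entrez identifiers, and promoter windows came from RefSeq (GRCm38.p6, the same build as mm10), with 1 or more windows for each of the 8 genes.

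The 8 genes and all lists were chosen with earlier results of these data known. Genes named in the text are the 8 genes, every other IL-1 family gene, the 3 largest rises and falls among called genes of each list (with Map3k8 and the genes that were not called or not tested added after their values were seen), the 2 marker genes with the highest mean FPKM per list, and the 3 nearest profiles. Alternatives were RLE factors, library size only, no filter beyond 1 count, at least 10 counts in every library, DESeq2 1.42.0, a replicate block, limma 3.58.1 on log2(FPKM + 1) and log2(FPKM + 0.1), the adjusted p alone, ratios of CPM and leaving out each library. Added after seeing the data were libraries 1 and 2 alone and the FPKM of Il1b in TgAPPsweOCN library 2 taken from its count, also together and with each library left out. The fit was tested on simulated data. Tables were made in Python 3.11.15 (pandas 2.3.3) and plots with matplotlib 3.10.9.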

Additional observations from a re-analysis of the deposited data

How the results depend on the processing

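Il1a, Il1b and Il1rn were up-regulated in every alternative that tested them (15, 16 and 16), with log2 fold changes of 2.88 to 6.26, 2.56 to 3.46 and 1.999 to 2.43. The filter on 10 counts in each library left Il1a out. Il1rap was called in 4 and Il18bp in 1 of 16, all of them fits without a library. Leaving out each library in turn gave 3 to 4 up-regulated IL-1 family genes, 1103 to 1150 up-regulated and 1125 to 1262 down-regulated genes in all, and 19 to 20 up-regulated IL-1 induced target genes. For Il1r1 these fits gave -0.52 to 0.27, and its sign changed to 0.18 without control library 2 and to 0.27 without TgAPPsweOCN library 1. For Il18rap the value without TgAPPsweOCN library 1 was 0.0034 and of the other sign (range of these fits -1.005 to 0.0034). The mean log2 difference of the Il1b to Il1rn ratio, 1.195, was 0.88 to 1.42 in these fits, 0.59 by CPM and 0.63 with the FPKM of library 2 from its count. The CPM difference was 0.42, 0.72 and 0.62 without control library 1, 2 or 3, and -0.0062, 1.23 and 0.54 without TgAPPsweOCN library 1, 2 or 3. With the FPKM from the count it was 0.47, 0.77 and 0.66, and 0.034, 1.28 and 0.58. With libraries 1 and 2 alone the difference was 1.45 by FPKM, 0.58 by CPM and 0.61 with the FPKM from the count. The Il1a to Il1rn difference was 2.40 to 4.29 and the Il18 to Il18bp difference -0.87 to -0.40 without each library.

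The adjusted p alone gave 5 raised IL-1 family genes, 4122 raised genes in all and 4007 lowered. limma on log2(FPKM + 1) gave 593 up-regulated genes in all. Scaling by library size only moved the median of all genes from -0.02 to -0.23 and left 1 maturation gene (Casp4) and 2 signalling genes (Irak3 and Irak2) up-regulated, with 2 signalling genes (Peli2 and Tab1) and 2 other IL-1 family genes (Il1rl1 and Sigirr) down-regulated. limma with either pseudocount also gave 1 maturation gene and 2 signalling genes up-regulated. With a pseudocount of 0.1 there were 2 signalling genes down-regulated, and with a pseudocount of 1 there were 0 other IL-1 family genes down-regulated, as with 10 or more counts in each library, where Il1rl1 was not tested, and with libraries 1 and 2 alone, which gave 2 down-regulated signalling genes. DESeq2 and the fit with no filter each called 1 other IL-1 family gene, Il33, up-regulated. Leaving out each library gave 0 to 1 down-regulated maturation genes and 1 to 2 down-regulated other IL-1 family genes. Apart from the fits named for their construction, the causes were not tested.

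Libraries of the same number did not deviate together in every pair (correlations of 0.0029, -0.0944 and 0.1439), so the numbers were not taken to pair the libraries. With the replicate block the log2 fold change was 5.62 for Il1a, 2.89 for Il1b and 2.29 for Il1rn, with 3 up-regulated IL-1 family genes and 1115 up-regulated genes in all, and Il18 passed the adjusted p (0.0469) at 0.30. Il1r2, the IL-18 receptor chain Il18r1 and the genes induced by IL-18 had at most 4 counts in any library, and a difference in them was not detectable at this depth.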
